A study of Mus musculus with 9 samples.

Results

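The genes described here are 9 RNA-binding protein genes linked to fetal and progenitor cells, Igf2bp1, Igf2bp2, Igf2bp3, Lin28b, Msi1, Msi2, Fmr1, Celf1 and Celf2, chosen by name as the lines carrying those symbols among the 23360 genes listed for each library. RNA abundance was measured in 9 mouse libraries, 3 per group. A1G tumours were primary SHH medulloblastomas, tumours of the cerebellum with active Sonic hedgehog signalling, from Math1-cre;A1G;Ptch1+/- animals of mixed strain. Here the Math1 (Atoh1) promoter, active in granule neuron progenitors, drives Cre, and the labels do not spell out the A1G allele. Ptch1 tumours were primary SHH medulloblastomas from Ptch1+/- animals of mixed strain. The control was cerebellum of wild-type adult C57BL/6 mice. The tumour kinds share the Ptch1+/- genotype and differ by Math1-cre and A1G together, and the comparison with cerebellum joins genotype, strain, tissue and developmental stage. The animals' ages are not given beyond the word adult.

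Each of these proteins binds messenger RNA and sets how long it lasts, where it goes or how much of it is translated. The Igf2bp proteins bind and protect target messengers in the embryo, and Igf2bp1 and Igf2bp3 are known as oncofetal proteins because tumours can re-express them. Lin28b blocks the maturation of let-7 microRNAs, whose targets include growth and cell cycle genes. Musashi proteins (Msi1, Msi2) are markers of neural stem and progenitor cells. FMRP, the product of Fmr1, represses translation of synaptic messengers, and CELF proteins regulate splicing and messenger decay through GU-rich elements.

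Depth ranged from 2350941 to 9290237 assigned fragments per library. Levels are given as counts normalised for depth (CPM) scaled over all 9 libraries, and levels of different genes are compared as FPKM, fragments normalised for gene length and depth. The labelled tissues carried their markers. All 8 granule neuron progenitor markers were higher in tumours, with a summed level of 2595 to 4712 CPM in tumours and 82.99 to 136 CPM in cerebellum. All 8 mature granule neuron, all 8 Purkinje cell and all 8 oligodendrocyte markers were lower in tumours. Of the other lists, 5 of 8 astrocyte and Bergmann glia markers fell and 1, Sox9, rose (sums of 1135 to 2376 CPM in tumours and 3985 to 4658 CPM in cerebellum). Of the oligodendrocyte precursor markers 4 of 6 rose and 1 fell (446 to 1104 against 171 to 192 CPM), and 5 of 8 microglia and macrophage markers rose (148 to 346 against 117 to 150.2 CPM). The part of these differences in cell types in the comparisons with cerebellum was not tested. A1G replicate 2 stood apart, with 1226 CPM over the 8 dividing-cell markers against 3429 to 4609 CPM in the other A1G tumours. Cerebellum replicate 1 held 2723 CPM of the 4 choroid plexus and ependyma markers, against 50.5 and 99.0 CPM in the other cerebellum libraries. The labels name replicates without saying whether they came from separate animals, so p-values measure the spread between these libraries. In bulk tissue, fewer cells of a type and less RNA per cell cannot be told apart.

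The genes lie, in mm10 coordinates of the GENCODE M21 annotation, at chr11:95957163-96005940 (Igf2bp1), chr16:22059009-22163299 (Igf2bp2), chr6:49085223-49214957 (Igf2bp3), chr10:45376620-45486395 (Lin28b), chr5:115429599-115455698 (Msi1), chr11:88339382-88718513 (Msi2), chrX:68678541-68717963 (Fmr1), chr2:90940382-91019497 (Celf1) and chr2:6539694-7509563 (Celf2). All 9 are protein-coding genes. The annotated span of Igf2bp3 overlaps by 1529 bases that of Malsu1, which lies on the opposite strand and was listed at 2.88 to 9.98 CPM. Annotated antisense genes without a line of their own also overlap Igf2bp1, Msi1, Msi2 and Celf2. Whether the counting used strand is not stated, so reads of such partners cannot be told apart.

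The let-7 microRNAs are shown because they are the RNAs that Lin28b acts on, and a single shared seed, bases 2 to 8 from the 5′ end, defines the family's targets. The 9 mature sequences, from RefSeq on GRCm38.p6, all carry the same seed, printed in capitals.
let-7a-5p: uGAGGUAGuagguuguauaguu
let-7b-5p: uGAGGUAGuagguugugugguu
let-7c-5p: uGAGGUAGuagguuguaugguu
let-7d-5p: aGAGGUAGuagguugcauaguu
let-7e-5p: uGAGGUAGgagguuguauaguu
let-7f-5p: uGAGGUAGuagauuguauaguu
let-7g-5p: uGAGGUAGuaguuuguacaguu
let-7i-5p: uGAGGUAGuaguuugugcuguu
miR-98-5p: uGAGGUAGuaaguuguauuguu

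Lin28 proteins are known to contact a GGAG motif in the terminal loop of let-7 precursors. Of the 12 let-7 family hairpins in RefSeq, 9 hold GGAG between the mature arms and 3 do not. An example of each kind is shown, with that motif in capitals where it is present, let-7a-2 from chr9:41536716-41536811 (plus strand) and let-7b from chr15:85707319-85707403 (plus strand).
let-7a-2 hairpin: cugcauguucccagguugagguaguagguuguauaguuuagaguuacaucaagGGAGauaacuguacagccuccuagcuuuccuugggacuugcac
let-7b hairpin: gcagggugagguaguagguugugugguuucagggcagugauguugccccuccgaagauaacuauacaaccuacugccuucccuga

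A pair of promoters is shown for contrast, Fmr1, which was well expressed in every library, and Igf2bp2, which was barely detected. Each is the 250 bases before a RefSeq start on GRCm38.p6, at chrX:68678291-68678540 (plus strand) and chr16:22163300-22163549 (minus strand), and capitals mark the GC box GGGCGG or its reverse complement CCGCCC.
Fmr1 promoter: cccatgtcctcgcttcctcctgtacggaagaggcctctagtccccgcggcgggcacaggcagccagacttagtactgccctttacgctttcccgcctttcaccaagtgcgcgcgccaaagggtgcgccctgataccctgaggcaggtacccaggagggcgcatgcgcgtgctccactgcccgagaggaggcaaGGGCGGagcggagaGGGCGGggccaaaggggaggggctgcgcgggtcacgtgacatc
Igf2bp2 promoter: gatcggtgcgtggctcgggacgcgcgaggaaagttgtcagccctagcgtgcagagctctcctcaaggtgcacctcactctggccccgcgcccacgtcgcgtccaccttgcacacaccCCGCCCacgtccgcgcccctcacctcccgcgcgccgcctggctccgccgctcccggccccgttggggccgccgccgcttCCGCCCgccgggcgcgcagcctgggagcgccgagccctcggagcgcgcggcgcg

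Both windows hold 2 GC boxes, a motif present on either strand in 32.7% of the 32851 promoter windows of that length. The Igf2bp2 window has 40 CG dinucleotides, more than 98.7% of windows, and the Fmr1 window has 21. Promoter entries were matched for 7 of the 9 genes. None of their 14 windows holds the E-box CAGCTG, present in 13.0% of all windows. The E-box CAGATG, present in 14.4%, occurs once, in the Lin28b window (chr10:45470202-45470451), which lies inside the annotated span of the gene. The Gli core ACCACCC, present in 3.92%, occurs once, in 1 of the 5 Celf2 windows, which also lie inside that gene's span. These matches describe letters only.

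**Figure D1:**
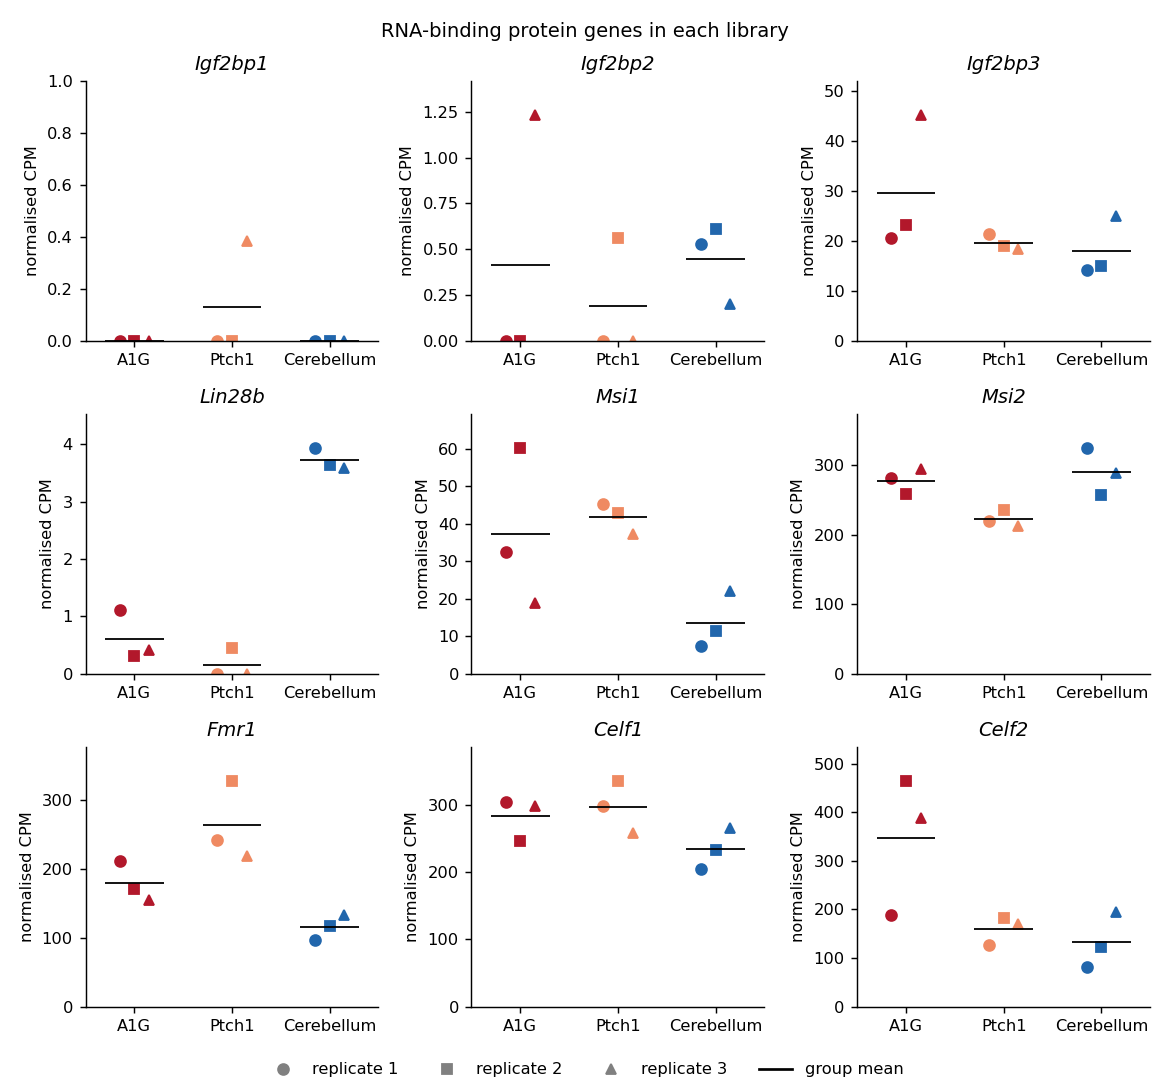
Level of each of the 9 genes in each library (y axis, CPM scaled over all 9 libraries, linear, from 0), by group (x axis), with 1 point per library shaped by replicate number and a bar at the group mean. Lin28b in cerebellum (3.59 to 3.94 CPM) stands above every tumour, Fmr1 in the tumours (155 to 328 CPM) stands above every cerebellum library, and Igf2bp1 is at or near 0 throughout.

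Of the 9 genes, 6 passed the filter on low values, an FPKM of 1 or more in 3 or more libraries, among the 14337 genes tested: Igf2bp3, Msi1, Msi2, Fmr1, Celf1 and Celf2. In tumours of both kinds against cerebellum, Msi1 and Fmr1 rose and none of the 6 fell, by the quasi-likelihood test of edgeR at a Benjamini-Hochberg adjusted p under 0.05. Over all tested genes, 42.2% changed in that comparison, 20.7% upward and 21.5% downward. The 2 of 6 called, both upward, stand beside those shares. Of all 9 genes, 2 had groups without overlap, Fmr1 above and Lin28b below cerebellum. The share was 38.2% over the tested genes, which do not include Lin28b. The median log2 fold change of the 6 was 0.62, against 0.01 over all tested genes. Igf2bp1, Igf2bp2 and Lin28b lay below the filter.

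Of the genes most closely tied to the fetal program, Igf2bp1 and Igf2bp2 were hardly detected in any group. Igf2bp1 had 1 fragment in all, in Ptch1 replicate 3. A library without a fragment allows a level of up to 3 fragments, which is 0.337 CPM in the deepest library and 1.23 CPM in the shallowest, and these limits cover counting error only. Igf2bp2 had 3 fragments in the A1G tumours, all in replicate 3, 5 fragments in the Ptch1 tumours, all in replicate 2, and 2, 2 and 1 fragments in the cerebellum libraries. Its mean level was 0.299 ± 0.510 CPM (SD, n = 6) in tumours and 0.444 ± 0.216 CPM (SD, n = 3) in cerebellum, with overlapping libraries and an exact two-sided permutation p of 0.595.

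Igf2bp3 carried nearly the whole Igf2bp level. Per length it made up 95.6% to 100% of the summed FPKM of the 3 Igf2bp genes in every library. Its level was 20.6, 23.1 and 45.2 CPM in the A1G tumour libraries, 21.3, 18.9 and 18.4 CPM in the Ptch1 tumour libraries and 14.2, 14.9 and 25.0 CPM in the cerebellum libraries. A1G replicate 3 was the highest library, and cerebellum replicate 3 exceeded 5 of the 6 tumours, so the groups overlapped. The log2 fold change of tumours against cerebellum was 0.41 (SE 0.33, edgeR adjusted p = 0.3495), a difference within the spread between libraries. Without A1G replicate 3 it was 0.19, and it was 0.71 without cerebellum replicate 3, neither of them past the threshold. Per length, Igf2bp3 stood at 4.33 ± 1.45 FPKM (SD, n = 3) in adult cerebellum and at 5.92 ± 2.47 FPKM (SD, n = 6) in tumours. Of the 3 Igf2bp genes and Lin28b, the genes best known as fetal, none was called higher in the tumours. Only Igf2bp3 of these passed the filter, so the main fit could not call the others.

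Lin28b, the let-7 inhibitor, was lower in tumours than in adult cerebellum. It had 3, 1 and 1 fragments in the A1G tumours, 0, 4 and 0 in the Ptch1 tumours and 15, 12 and 18 in cerebellum. The corresponding levels were 1.11, 0.312 and 0.411 CPM, then 0, 0.449 and 0 CPM, and 3.94, 3.65 and 3.59 CPM. Every cerebellum library exceeded every tumour, a pattern that 19.7% of the tested genes showed, a set that does not include Lin28b. The SD of the cerebellum libraries was 0.186 CPM (n = 3). The cerebellum mean was 9.82 times that of the tumours (3.73 against 0.380 CPM), and 15.9 times without A1G replicate 1, the highest tumour. The exact two-sided permutation test gave p = 0.0238, the lower limit for 6 and 3 libraries. Fitted by edgeR without the filter, over 20100 genes, the log2 fold change was -3.22 (SE 0.87, adjusted p = 0.00484), in a fit where 16.2% of genes fell, and it was -4.64 (adjusted p = 0.00230) without Ptch1 replicate 2. Without the filter the Ptch1 tumours differed from cerebellum by -3.91 (SE 1.14, adjusted p = 0.00937, where 14.1% fell), and the A1G tumours by -2.53 (SE 1.10, adjusted p = 0.0976, where 11.6% fell). Even in cerebellum the level was low, at 0.715 ± 0.0356 FPKM (SD, n = 3). The mature granule neuron markers (8 of 8), Purkinje cell markers (8 of 8) and oligodendrocyte markers (8 of 8) were lower in tumours as well, and their part in the Lin28b difference was not tested. The relative gene Lin28a had 0 fragments in cerebellum and at most 0.936 CPM in a tumour.

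**Figure D2:**
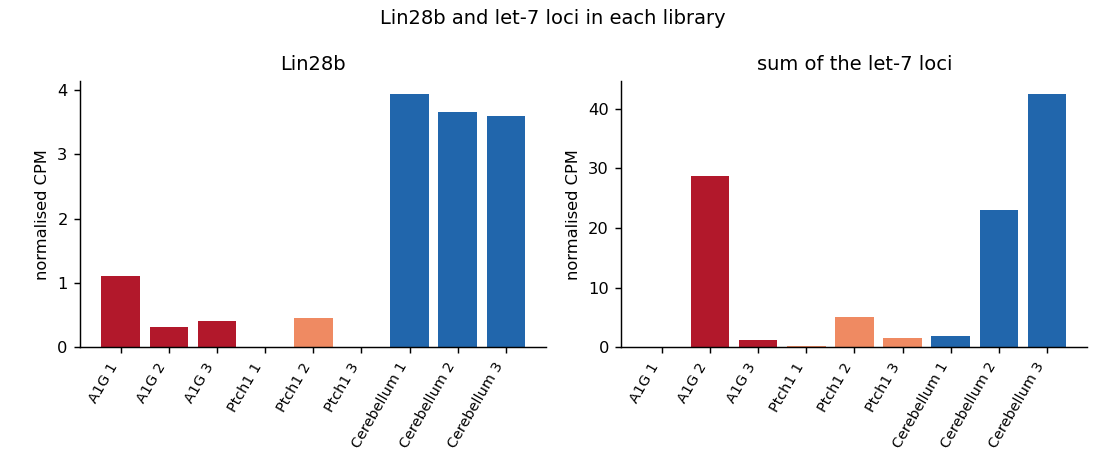
Lin28b (left) and the sum over the 12 let-7 loci (right) in each library, as bars from 0 in CPM scaled over all 9 libraries. Lin28b is high in all 3 cerebellum libraries, whereas the let-7 sum is high in A1G replicate 2 and in cerebellum replicates 2 and 3.

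Fragments assigned to let-7 loci did not follow the groups cleanly. Summed over 12 loci they were 0, 92 and 3 in the A1G tumours, 1, 46 and 4 in the Ptch1 tumours and 7, 76 and 213 in cerebellum. The high libraries were also those with more fragments on microRNA genes as a whole. The 647 microRNA lines summed to 32.4, 238 and 28.4 CPM in the A1G tumour libraries, 44.0, 93.2 and 29.9 CPM in the Ptch1 tumour libraries and 16.8, 167 and 160 CPM in the cerebellum libraries, and the part of these totals in the let-7 values was not tested. As a share of them, let-7 was 0% to 12.1% in tumours and 11.0% to 26.6% in cerebellum. Of 7 tested loci, only let-7a-2 (Mirlet7a-2) fell, against 21.5% of all genes downward. It fell by 3.32 on the log2 scale (SE 0.97, edgeR adjusted p = 0.0153). Its mean was 3.18 CPM in cerebellum against 1.07 CPM in the A1G and 0.0374 CPM in the Ptch1 tumours. The locus had 51 fragments in all, in 6 libraries. Against cerebellum the Ptch1 tumours passed (-5.16, SE 1.39, edgeR adjusted p = 0.0108) and the A1G tumours did not (-1.48, SE 1.06, adjusted p = 0.314). A1G replicate 2 (2.81 CPM) lay above cerebellum replicate 1 (0.788 CPM). Mature and precursor forms cannot be told apart in these counts.

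Of 9 tested let-7 processing and decay genes (11 listed), 3 rose and none fell, against 20.7% upward and 42.2% in either direction over all genes, with a median log2 fold change of 0.43. Dgcr8, the microRNA-binding partner of Drosha, rose by 0.97 (SE 0.23, edgeR adjusted p = 0.00422). Xpo5, which exports precursors from the nucleus, rose by 0.83 (SE 0.25, edgeR adjusted p = 0.0182), and Zcchc11, the uridyl transferase that Lin28 proteins recruit, rose by 0.68 (SE 0.21, edgeR adjusted p = 0.0210). Dicer1 (0.43, adjusted p = 0.176) and Drosha (0.09, adjusted p = 0.844) did not pass.

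Of 12 tested genes known as let-7 targets, 8 rose and none fell, against 20.7% of all genes upward and 21.5% downward, and the median log2 fold change was 1.30. Igf1r (0.76, adjusted p = 0.0744), Arid3a (0.71, adjusted p = 0.0688), Arid3b (0.71, adjusted p = 0.177) and Cdc34 (-0.52, adjusted p = 0.265) did not pass. Cdk6, a kinase of the G1 phase, stood at 151 to 411 CPM in tumours and 0.399 to 0.788 CPM in cerebellum (log2 fold change 8.65, SE 0.53). Its cyclin partner Ccnd2 rose by 7.09 (SE 0.37), and the transcription factor Mycn, a target of Hedgehog signalling, rose by 5.72 (SE 0.30). Ccnd1, Ccnd2 and Mycn are also in the list of granule neuron progenitor markers, all 8 of which were higher in tumours. Hmga2, the classical oncofetal let-7 target, was below the filter, at 0 to 1.47 CPM in tumours and 0.263 to 2.80 CPM in cerebellum. The edgeR adjusted p was 3.13e-07 for Cdk6 and 1.50e-07 for each of Ccnd2 and Mycn.

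The Igf2bp proteins take their name from binding the messenger of Igf2, a fetal growth factor. Of 7 tested fetal growth genes, most of them imprinted, 3 fell and none rose, against 21.5% of all genes downward, with a median log2 fold change of -0.53. Igf2 itself was at 10.3, 47.7 and 31.7 CPM in the A1G tumour libraries, 55.4, 17.2 and 28.4 CPM in the Ptch1 tumour libraries and 82.5, 104 and 136 CPM in the cerebellum libraries, without overlap (log2 fold change -1.76, SE 0.42, edgeR adjusted p = 0.00478). The noncoding RNA Meg3 fell by 4.59 (SE 0.65, edgeR adjusted p = 0.000130), and Plag1, a transcription factor known to activate Igf2, fell by 3.003 (SE 0.57, edgeR adjusted p = 0.00103).

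Most genes of the known messenger complex partners of the Igf2bp family rose. Of 7 tested, 6 rose and none fell, against 20.7% of all genes upward, with a median log2 fold change of 1.47. Syncrip rose by 2.22 (SE 0.31, edgeR adjusted p = 0.000128), from 82.9 to 117 CPM in cerebellum to 243 to 635 CPM in tumours. The poly(A)-binding protein gene Pabpc1 rose by 1.78 (SE 0.27, edgeR adjusted p = 0.000204) and the helicase gene Dhx9 by 1.55 (SE 0.36, edgeR adjusted p = 0.00401). Igf2bp proteins also read m6A, the methyl mark on adenosines in messengers. Of 10 tested m6A writers, erasers and YTH readers, 3 rose and none fell (median 0.23), against the same 20.7%. The reader Ythdf2 rose by 1.24 (SE 0.25), the writer subunits Mettl14 and Wtap by 1.13 (SE 0.23) and 0.92 (SE 0.24), with edgeR adjusted p of 0.00153, 0.00205 and 0.00898. All 8 dividing-cell markers were higher in tumours, with sums of 1226 to 5690 CPM against 11.4 to 21.01 CPM, and their part in these lists was not tested.

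Msi1, the Musashi protein of neural stem cells, rose in both kinds of tumour. Its level was 32.4, 60.2 and 18.9 CPM in the A1G tumour libraries, 45.3, 42.8 and 37.2 CPM in the Ptch1 tumour libraries and 7.35, 11.3 and 21.96 CPM in the cerebellum libraries. All Ptch1 tumours exceeded every cerebellum library, whereas A1G replicate 3 lay below cerebellum replicate 3. The log2 fold change was 1.53 for both tumour kinds together (SE 0.42, edgeR adjusted p = 0.0115), 1.45 for A1G tumours (SE 0.47, adjusted p = 0.0317) and 1.61 for Ptch1 tumours (SE 0.47, adjusted p = 0.0154). The separate comparisons share the cerebellum libraries. The call for both kinds ended without cerebellum replicate 1 (1.22, adjusted p = 0.0559) or replicate 2 (1.38, adjusted p = 0.0640), and was 2.08 (adjusted p = 0.00533) without replicate 3. Without cerebellum replicate 1 or 2, the Ptch1 call (1.30 and 1.45, adjusted p = 0.0598 and 0.0708) and the A1G call (1.14 and 1.30, adjusted p = 0.111 and 0.118) ended too. With the replicate number as a block the A1G call ended as well (1.42, adjusted p = 0.0502). The A1G call also ended without A1G replicate 2 (0.91, adjusted p = 0.136), the library with the highest Msi1 and the lowest dividing-cell markers. The part of those markers was not tested.

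Msi2 was abundant everywhere and did not pass in any comparison. It stood at 281, 258 and 294 CPM in the A1G tumour libraries, 219.8, 236 and 213 CPM in the Ptch1 tumour libraries and 325, 256 and 289 CPM in the cerebellum libraries. The Ptch1 tumours all lay below the other 6 libraries. The log2 fold change was -0.22 in tumours against cerebellum (SE 0.19, edgeR adjusted p = 0.380) and -0.38 in Ptch1 tumours against cerebellum (SE 0.22, adjusted p = 0.199).

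The Musashi proteins are paralogs, so the ratio of Msi1 to Msi2 within a library was compared between groups, a value that needs no scaling between libraries. A ratio of fragments also carries the lengths of the genes, so only its difference between groups is read. The log2 ratio of Msi1 to Msi2 fragments, with 0.5 added to each, was -3.11, -2.10 and -3.94 in the A1G tumours, -2.27, -2.46 and -2.51 in the Ptch1 tumours and -5.44, -4.49 and -3.71 in cerebellum. The ratio was higher in tumours by 1.82 log2 units, and by 1.80 as a ratio of deposited FPKM (exact two-sided permutation p = 0.0476 for each, 6 against 3 libraries). After adjustment over 4 such tests of fragments this did not pass (0.190). Per length, Msi1 and Msi2 stood at 29.2 ± 10.2 and 41.7 ± 7.83 FPKM in tumours (SD, n = 6) and at 9.997 ± 5.59 and 47.1 ± 5.40 FPKM in cerebellum (SD, n = 3). Between tumour kinds the ratio differed by -0.63 (A1G minus Ptch1, exact permutation p = 0.4, smallest possible 0.1). The only Musashi target gene to pass, of 3 tested, was Dcx, a microtubule protein of migrating neurons. Over all tested genes, 42.2% changed, 20.7% upward. It rose by 5.19 (SE 0.41, edgeR adjusted p = 1.76e-06), from 12.8 to 24.2 CPM to 376 to 1208 CPM.

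**Figure D3:**
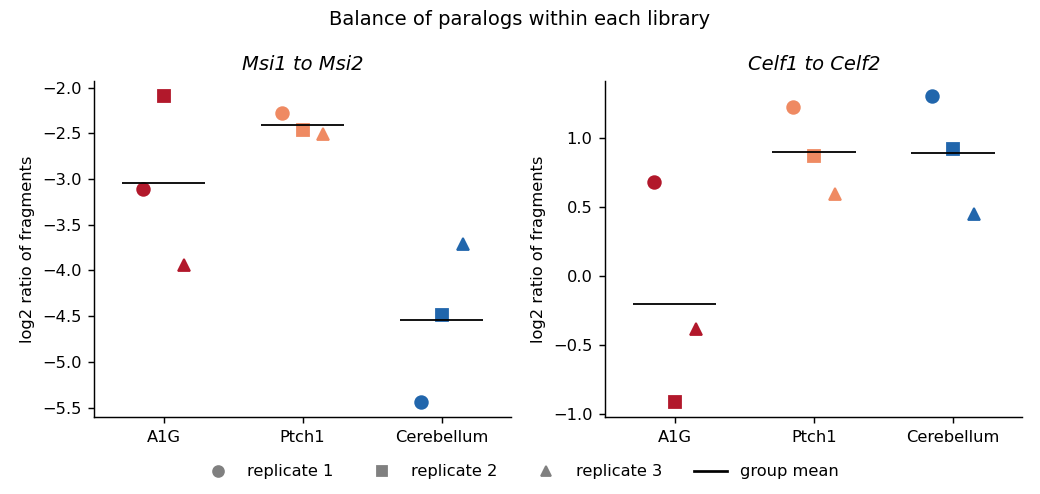
Log2 ratio of fragments of Msi1 to Msi2 (left) and Celf1 to Celf2 (right) in each library by group, with 1 point per library shaped by replicate and a bar at the group mean, where levels between panels carry gene length and only groups are compared. The mean of Msi1 to Msi2 is lowest in cerebellum (libraries at -5.44 to -3.71, overlapping A1G replicate 3 at -3.94), and Celf1 to Celf2 is lowest in A1G replicates 2 (-0.91) and 3 (-0.38).

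Fmr1 rose in tumours with no overlap between groups. Its level was 211, 172 and 155 CPM in the A1G tumour libraries, 243, 328 and 219 CPM in the Ptch1 tumour libraries and 97.4, 117 and 134 CPM in the cerebellum libraries. The lowest tumour thus exceeded the highest cerebellum library, as did 18.5% of all tested genes. The log2 fold change was 0.90 (SE 0.23, edgeR adjusted p = 0.00775), and the call held under each of 17 other settings, with adjusted p of at most 0.0452. In Ptch1 tumours the change was 1.18 (SE 0.26, adjusted p = 0.00344). In A1G tumours it was 0.63 (SE 0.26) and did not pass (adjusted p = 0.0848), although these libraries too all exceeded cerebellum. Between the tumour kinds Fmr1 differed by -0.56 (A1G minus Ptch1, SE 0.26), which did not pass either (adjusted p = 0.474).

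Of 10 tested relatives and partners of FMRP, 3 rose and 1 fell, near the 42.2% of all genes that changed, with a median log2 fold change of 0.40. G3bp1, a stress granule protein, rose by 1.996 (SE 0.27, edgeR adjusted p = 9.35e-05), and its partner Caprin1 by 1.01 (SE 0.23, edgeR adjusted p = 0.00355). Nufip1, a nuclear FMRP-interacting protein, rose by 0.68 (SE 0.25, edgeR adjusted p = 0.0463). Cyfip2, a cytoplasmic partner that also belongs to the WAVE actin complex, fell by 2.55 (SE 0.33, edgeR adjusted p = 6.94e-05). The paralogs Fxr1 (0.51, adjusted p = 0.113) and Fxr2 (-0.29, adjusted p = 0.273) did not pass.

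Most of the listed messengers known to be bound by FMRP fell in tumours, among them those of several synaptic proteins. Of 7 tested, 5 fell and none rose, against 21.5% of all genes downward, with a median log2 fold change of -2.02. Camk2a, a postsynaptic kinase, stood at 1.83 to 5.61 CPM in tumours and 26.5 to 108 CPM in cerebellum (log2 fold change -4.37, SE 0.42, edgeR adjusted p = 7.02e-06). The activity-regulated gene Arc fell by 2.96 (SE 0.50, edgeR adjusted p = 0.000452) and the postsynaptic scaffold gene Shank3 fell by 2.93 (SE 0.40, edgeR adjusted p = 9.76e-05). Map1b, a microtubule protein of growing neurites, had a change of 0.38 (adjusted p = 0.342), and Dlgap3, another postsynaptic scaffold gene, one of 0.82 (adjusted p = 0.0616). The mature granule neuron markers fell too, from 6867 to 7817 CPM in sum in cerebellum to 185 to 963 CPM in tumours, and their part in these messengers was not tested.

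Celf1 differed little between groups. It stood at 304, 246 and 298 CPM in the A1G tumour libraries, 297, 335 and 257 CPM in the Ptch1 tumour libraries and 204, 232 and 265 CPM in the cerebellum libraries. Cerebellum replicate 3 overlapped the lowest tumours, and the log2 fold change of 0.31 did not pass (SE 0.21, edgeR adjusted p = 0.256).

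Celf2 was higher in A1G tumours than in cerebellum. Its level was 189, 464 and 389 CPM in the A1G tumour libraries, 127, 183 and 170.1 CPM in the Ptch1 tumour libraries and 82.5, 123 and 194 CPM in the cerebellum libraries. A1G replicates 2 and 3 stood above every other library, and A1G replicate 1 lay just below cerebellum replicate 3. The log2 fold change in A1G tumours was 1.38 (SE 0.38, edgeR adjusted p = 0.0153), and the call ended without cerebellum replicate 1 (1.12, adjusted p = 0.0624) or replicate 2 (1.29, adjusted p = 0.0665). In Ptch1 tumours it was 0.27 (SE 0.38, adjusted p = 0.608). For both kinds together it was 0.82 (SE 0.34) with an adjusted p of 0.0673, which passed without A1G replicate 1 (0.97, adjusted p = 0.0233) or cerebellum replicate 3 (1.19, adjusted p = 0.0246). It also passed by limma on log2(FPKM + 1) (0.88, adjusted p = 0.0461) and on log2(FPKM + 0.1) (0.92, adjusted p = 0.0480). Of 17 other settings for both kinds together, 6 passed and 11 did not. Without cerebellum replicate 1 or 2 the change was 0.55 and 0.72 (edgeR adjusted p = 0.254 and 0.210).

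The Celf1 to Celf2 log2 ratio was 0.68, -0.91 and -0.38 in A1G tumours, 1.23, 0.87 and 0.60 in Ptch1 tumours and 1.30, 0.92 and 0.45 in cerebellum. The lowest ratios were those of A1G replicates 2 and 3. Per length, Celf2 stood above Celf1 in these libraries, at 53.7 against 41.6 FPKM and 48.7 against 45.8 FPKM, and below it in the other 7. FPKM per CPM of Celf1 differed between libraries, so the order of the pair carries that difference too. In A1G replicate 3, 298 CPM of Celf1 stood at 45.8 FPKM, and in Ptch1 replicate 1, 297 CPM stood at 61.8 FPKM. The ratio differed by -0.54 between tumours and cerebellum (exact permutation p = 0.381) and by -1.10 between A1G and Ptch1 tumours (exact permutation p = 0.2), and both had an adjusted p of 0.4 over the 4 ratio tests.

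Among the other CELF genes only Celf6 rose, by 1.49 (SE 0.40, edgeR adjusted p = 0.0101), of 4 tested, against 20.7% of all genes upward. The Mbnl genes, splicing regulators known to oppose CELF proteins, split, with 1 of 3 up and 1 down, against 20.7% and 21.5% of all genes. Mbnl3 rose by 3.88 (SE 0.59, edgeR adjusted p = 0.000221), Mbnl2 fell by 0.91 (SE 0.23, edgeR adjusted p = 0.00594), and Mbnl1 did not pass (-0.27, adjusted p = 0.445). Of 8 other neural and progenitor RNA-binding protein genes, 5 rose and none fell, again against 20.7% of all genes upward, with a median of 0.82. Elavl2, of the neuronal Hu family, rose by 3.02 (SE 0.40, edgeR adjusted p = 7.84e-05). The splicing repressor gene Ptbp1, active in progenitors, stood at 155 to 242 CPM in tumours and 33.1 to 42.9 CPM in cerebellum (2.45, SE 0.26, edgeR adjusted p = 1.45e-05). Its neural paralog Ptbp2 rose by 1.08 (SE 0.24, edgeR adjusted p = 0.00299). Over all 12 lists of partners and targets, 31 of the 87 tested genes rose and 11 fell, against 20.7% and 21.5% of all genes, and none of the 87 passed between A1G and Ptch1 tumours.

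**Figure D4:**
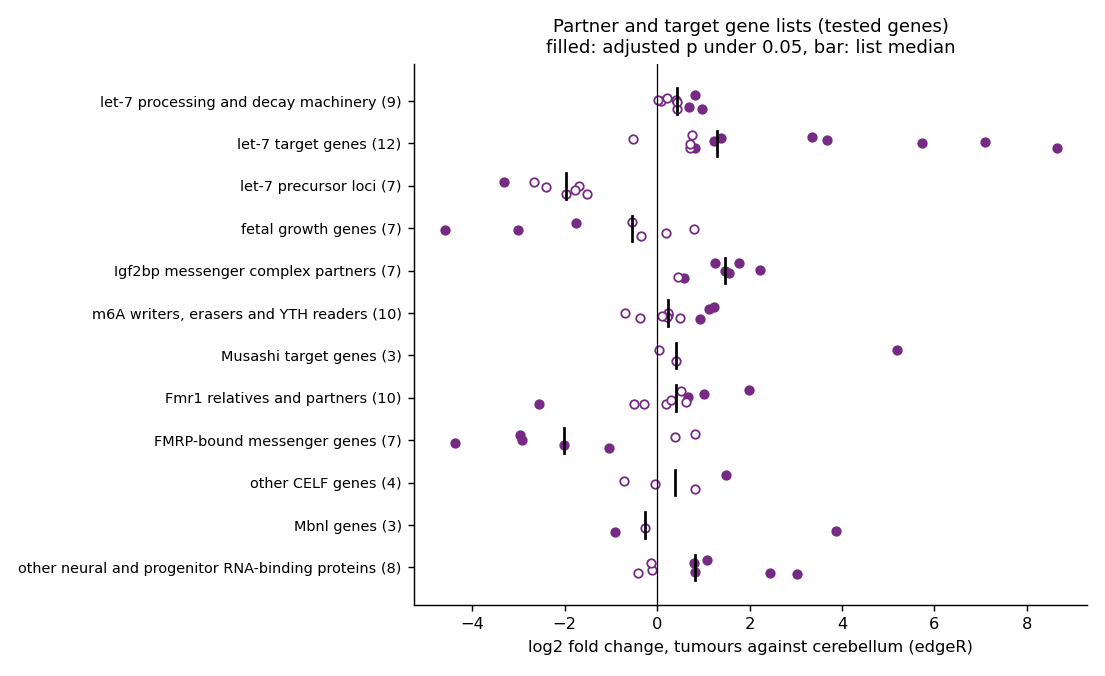
Log2 fold change of tumours against cerebellum (x axis) for each tested gene of 12 lists of partners, targets and related genes (rows, number tested in parentheses), 1 point per gene with small vertical jitter, filled where the edgeR adjusted p is under 0.05, and a bar at the list median. Igf2bp complex partners and let-7 targets lie mostly to the right (medians 1.47 and 1.30), and FMRP-bound messengers to the left (median -2.02).

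Between A1G and Ptch1 tumours none of the 6 tested genes passed, nor did nearly any gene: edgeR called 2 of 14337 genes, or 0.0139%. At an unadjusted p under 0.05, edgeR called 1 of the 6, against 10.6% of all genes, and DESeq2 called none of the 6 after adjustment, against 1.29% of genes. The 1 was Celf2, with a log2 difference of 1.12 (A1G minus Ptch1, SE 0.38, unadjusted p = 0.0120, adjusted p = 0.348). The A1G tumours were all higher than the Ptch1 tumours for Celf2 and Msi2 and all lower for Fmr1, and 15.5% of tested genes had groups without overlap. Marker levels of other cell types are given beside these values. The 8 Purkinje cell markers had a median log2 difference of 2.71 with 1 of them past the threshold, Calb1 (3.81, SE 0.40, edgeR adjusted p = 0.00627), and summed to 380 to 732 CPM in A1G and 197 to 319 CPM in Ptch1 tumours, where Pcp2 was at 0. Of the 8 oligodendrocyte markers (median 1.39, sums of 336 to 437 against 69.0 to 392 CPM) and the 8 mature granule neuron markers (median 1.17, sums of 377 to 963 against 185 to 679 CPM) none passed. The part of these markers was not tested. Msi2 differed by 0.32 (SE 0.22, edgeR adjusted p = 0.642), Igf2bp3 by 0.60 (SE 0.38, adjusted p = 0.602), Msi1 by -0.16 (SE 0.45, adjusted p = 0.927) and Celf1 by -0.07 (SE 0.24, adjusted p = 0.943). Lin28b had 5 fragments in A1G tumours and 4 in Ptch1 tumours, all in replicate 2, the deepest library (exact permutation p = 0.3, smallest possible 0.1).

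**Figure D5:**
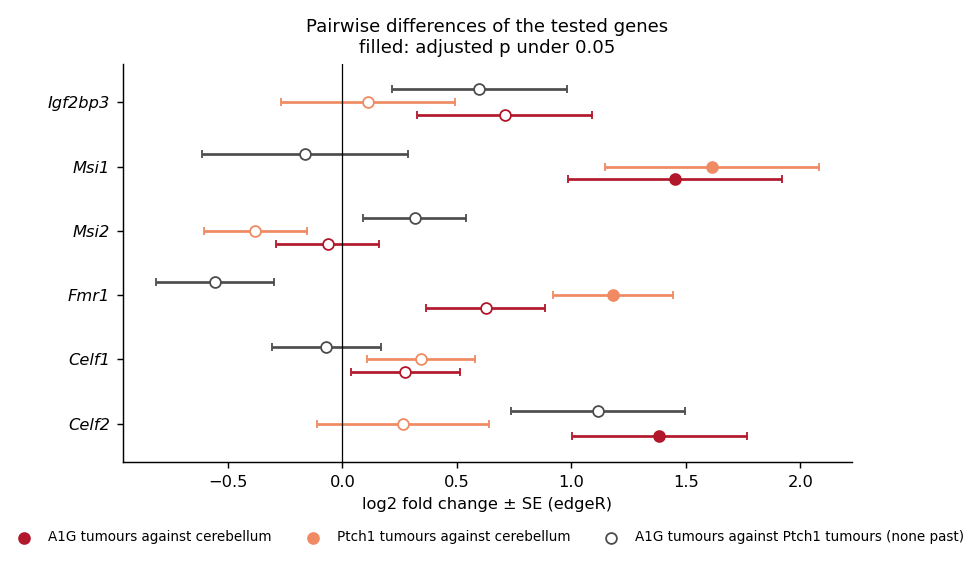
Log2 fold change ± SE of the 6 tested genes (rows) for each tumour kind against cerebellum and for A1G against Ptch1 tumours, from 1 edgeR fit over all 9 libraries, filled where the adjusted p is under 0.05. Msi1 is filled in both tumour kinds, Celf2 in A1G tumours (1.38) and Fmr1 in Ptch1 tumours (1.18), and no point of A1G against Ptch1 is filled.

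Against cerebellum taken separately, each tumour kind had 2 of the 6 genes called, all upward. These were Msi1 and Celf2 in A1G tumours, where 32.4% of all genes changed (16.3% upward), and Msi1 and Fmr1 in Ptch1 tumours, where 40.0% changed (20.2% upward). Groups did not overlap for 2 of the 9 genes in A1G tumours and for 4 of the 9 in Ptch1 tumours, Lin28b among them in both. The shares over the tested genes, which do not include Lin28b, were 45.9% and 54.2%. The medians of the 6 were 0.67 and 0.30, against 0.03 and 0 over all genes. That a gene passed in 1 kind only does not show that the kinds differ, since the direct comparison called neither Celf2 nor Fmr1.

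Per length, the order of the genes by group mean was the same in A1G tumours and cerebellum and differed in Ptch1 tumours. In A1G tumours Msi2 (47.7 ± 6.27 FPKM), Celf1 (46.2 ± 4.74), Fmr1 (42.7 ± 6.87) and Celf2 (41.9 ± 16.4) led, each within the spread of its neighbours (SD, n = 3), and the range of Msi1 (27.5 ± 15.6) overlapped those of Celf2, Celf1, Fmr1 and Msi2. In Ptch1 tumours Fmr1 (62.6 ± 13.6 FPKM) and Celf1 (57.8 ± 7.64) overlapped and stood above Msi2 (35.7 ± 2.12), Msi1 (30.9 ± 3.09) and Celf2 (19.5 ± 3.40). In cerebellum Msi2 (47.1 ± 5.40 FPKM) and Celf1 (42.2 ± 3.96) overlapped and stood above Fmr1 (27.6 ± 4.31), Celf2 (15.7 ± 6.05) and Msi1 (9.997 ± 5.59), the last pair overlapping. Igf2bp3 ranked 6 in every group, and Lin28b, Igf2bp2 and Igf2bp1 were each below 1 FPKM in every library.

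Some libraries set the extremes of several genes at once. In cerebellum, replicate 3 was the highest library for 5 of the 6 tested genes and replicate 1 the lowest for 5, the exception being Msi2. In Ptch1 tumours, replicate 3 was the lowest for 5 of 6 and replicate 2, the deepest library, the highest for 4. In A1G tumours each replicate was highest for 2 genes and lowest for 2. Cerebellum replicate 1 was also the library with choroid plexus markers, whose part in these levels was not tested.

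The genes whose level followed each tested gene most closely over the 9 libraries, by Pearson correlation of log2(CPM + 1) and with no test, were Cttnbp2nl (0.987) and Sox12 (0.979) for Msi1, Rrs1 (0.977) and Pgm1 (0.970) for Fmr1, and Hps5 (0.968) and Camsap3 (0.957) for Igf2bp3. For Celf2 they were Kdm3b (0.965) and Sec61a2 (0.943), for Celf1 Stau1 (0.964) and Sox9 (0.946), and for Msi2 Rgcc (0.959) and Reps1 (0.927). These values share the libraries, their scaling and the differences between groups. Stau1, which is also among the FMRP partners, averaged 48.6 CPM in cerebellum, and 69.3 and 81.8 CPM in the A1G and Ptch1 tumours.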

How the data were processed

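RNA of 9 samples was depleted of ribosomal RNA, prepared with an Ion Total RNA-Seq kit and read on an Ion Proton, 3 libraries to a chip, per the labels' protocols. The chip of each library is not given, so chip and group cannot be told apart. Per the submitters' processing notes, the build was mm10 and Bowtie 0.12.2 was used, with no step named. The annotation, counting tool and use of strand are not given in the sources used here. Per the file headers, the deposited tables hold expected counts (raw fragments per gene), signal columns (fragments scaled by the authors) and FPKM. Since the deposited FPKM of cerebellum and tumours came from separate scalings (0.808 per scaled fragment in cerebellum against tumours), FPKM in the text was rescaled by 1 factor per library, 0.974 to 1.04, and CPM was recomputed.

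Expected counts were rounded and tested with edgeR 4.0.16 (R 4.3.3), TMM scaling and quasi-likelihood, 1 mean per group over all 9 libraries. The 14337 genes that reached an FPKM of 1 in 3 or more libraries were tested, with Benjamini-Hochberg adjustment of their p-values. Fold changes are log2. Each SE is the absolute log2 fold change divided by the square root of the quasi-likelihood F statistic, an approximate value. The 3 genes below the filter and the paralog ratios were compared by exact two-sided permutation tests (SciPy 1.17.1). Alternatives used other scalings and filters, DESeq2 1.42.0, limma 3.58.1 on deposited FPKM, a replicate block and each library left out. The labels do not say whether a replicate number pairs libraries across groups, and no pairing was used in the main fit. The deposited signal columns were used only to check the scaling.

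The 9 genes, the lists of partners and markers and the tests were chosen with earlier results of these data known. From each partner list, up to 3 genes per direction with the largest change past the threshold are named, beside others chosen after their values were seen. For likeness, the 2 most correlated genes with a mean of at least 10 CPM in their highest group are named, passing over genes known only by code. Eif2c1 and Eif2c2 stand for Ago1 and Ago2. Symbols were matched to GENCODE M21 on mm10 for coordinates, and sequences came from RefSeq on GRCm38.p6.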

Additional observations from a re-analysis of the deposited data

How the results depend on the processing

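The number of the 9 genes called in tumours against cerebellum was 2, in a fit where 42.2% of tested genes changed. It was 4 with no filter on low values, which added Lin28b (lower) and Celf2 (higher), in a fit where 16.2% of genes fell. limma on the deposited FPKM called 3, with Celf2 added, at either pseudocount. The shares of all genes called by limma, with a library left out or with the replicate block are not given here. The counts under those settings are therefore not read as results about these genes. Leaving out 1 library in turn gave 1 to 3 called genes in tumours against cerebellum, 0 to 2 in A1G tumours, 1 to 2 in Ptch1 tumours and 0 between tumour kinds. Leaving out cerebellum replicate 1 or 2 removed Msi1 and, in A1G tumours, Celf2, and leaving out A1G replicate 2 removed Msi1 there. In tumours against cerebellum, leaving out A1G replicate 1 or cerebellum replicate 3 added Celf2. The cause of these changes was not tested. Deviations of libraries sharing a replicate number correlated from -0.07 to 0.21, and those of libraries with different numbers from -0.25 to 0.24. A1G replicate 2 correlated best with cerebellum replicate 3 (0.24), and A1G replicate 1 with cerebellum replicate 1 (0.21). Whether the numbers pair libraries cannot be told from these values. With the replicate block, 3 genes were called in tumours (Celf2 added, adjusted p = 0.0207), 1 in A1G tumours (Msi1 lost, adjusted p = 0.0502) and 2 in Ptch1 tumours. The Msi1 to Msi2 ratio ranged from 1.37 to 2.23 over left-out libraries, with exact permutation p up to 0.143, and was 1.82 with the block (p = 0.25, the smallest that 3 pairs give). The log2 fold change of Lin28b without a filter ranged from -4.64 to -2.99 over left-out libraries, alternatives for this gene that were chosen after seeing the data. Its CPM difference ranged from -3.49 to -3.24 CPM over left-out libraries and reached its smallest possible p in each, 0.0357 without a tumour and 0.0714 without a cerebellum library. Sign changed only for genes that passed nowhere in that comparison. Over left-out libraries, Msi2 in A1G tumours ranged from -0.191 to 0.0106 (limma gave 0.0683 at a pseudocount of 1 and 0.0697 at 0.1), Igf2bp3 in Ptch1 tumours from -0.0577 to 0.412 and Celf2 in Ptch1 tumours from -0.00725 to 0.631. Between tumour kinds, Msi1 ranged from -0.699 to 0.1501 and Celf1 from -0.160 to 0.0285, and upper-quartile scaling gave 0.00204 for Celf1. Over 24 combinations of gene and comparison, 382 of the other settings kept side and direction, 10 lost a call, 6 gained one and 10 changed sign. Depth limited Igf2bp1, Igf2bp2 and Lin28b, whose tumour levels lay near the floor of 3 fragments.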
